A study of Rattus norvegicus with 10 samples.

Results

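The 6 genes described here encode neurotrophins and the receptors that bind them: Bdnf (brain-derived neurotrophic factor), Ntf3 (neurotrophin 3), Ntrk2 (the receptor TrkB), Ntrk3 (the receptor TrkC), Ngfr (the receptor p75NTR) and Sort1 (sortilin). They were chosen by name from the 17168 genes of a hippocampal RNA sequencing table, and all 6 had a row. The table holds 10 libraries. Each was made from the left hippocampus of 1 rat, a female of the TgF344-AD strain, which models Alzheimer disease. In the ibudilast group, 5 rats ate chow with ibudilast from 5 months of age for 6 months. In the untreated group, 5 rats ate plain rodent chow. All rats of both groups carried the transgenes and were 11 months old at dissection, and no rats without the transgenes were analysed here. TgF344-AD rats express mutant human amyloid precursor protein and an exon-deleted human presenilin 1 from a mouse prion promoter. Ibudilast inhibits several cyclic nucleotide phosphodiesterases. The comparison asks how the transcript levels of these genes differ between treated and untreated transgenic females.

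Neurotrophins are secreted growth factors that are made as larger precursors and cut to mature dimers. Mature BDNF binds TrkB and mature neurotrophin 3 binds mainly TrkC, both receptor tyrosine kinases that signal through Ras-MAP kinase, PI3 kinase and phospholipase C gamma. The precursors bind p75NTR together with sortilin, and sortilin also takes part in sorting proBDNF inside neurons. In the hippocampus Bdnf is transcribed mainly by granule cells and pyramidal neurons, and neurotrophin 3 by granule cells of the dentate gyrus. Transcription of Bdnf starts at several promoters and responds to neuronal activity, in part through the cAMP- and calcium-regulated factor CREB. The counts are per gene, so Bdnf transcripts from different promoters, and full-length and truncated TrkB, were not separated.

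Both neurotrophin genes among the 6 were lower in the ibudilast group, so the windows at their transcription starts are shown. RefSeq (GRCr8) lists start windows of 300 bases for 3 of the 6 genes, with 6 windows for Bdnf, 3 for Ntf3 and 1 for Sort1. The search covered both strands for the full cAMP response element TGACGTCA, its core TGACG and the E-box CANNTG, which basic helix-loop-helix factors bind. TGACG stood in 1 of the 6 Bdnf windows, on the minus strand (CGTCA as printed), with its first printed base at -35 from the listed start. It stood in 0 of the 3 Ntf3 windows and 0 of the 1 Sort1 window, and TGACGTCA in none of these 10 windows. CANNTG stood in 5 of the 6 Bdnf windows, all 3 Ntf3 windows and the Sort1 window. These windows are not all separate, since 2 Ntf3 windows are shifted by 1 base and 2 Bdnf windows overlap over most of their length, so the same sites are counted more than once. Over all 33469 listed windows, TGACG was found in 21.2%, TGACGTCA in 1.83% and CANNTG in 72.1%. The Bdnf window with the core and the first Ntf3 window follow, 5′ to 3′ on the strand of the gene, with TGACG (either strand) and CANNTG in capitals; the capitals of the 2 motifs do not overlap. The first is chr3:116637608-116637907 (plus strand) and the second chr4:160670574-160670873 (minus strand).
Bdnf: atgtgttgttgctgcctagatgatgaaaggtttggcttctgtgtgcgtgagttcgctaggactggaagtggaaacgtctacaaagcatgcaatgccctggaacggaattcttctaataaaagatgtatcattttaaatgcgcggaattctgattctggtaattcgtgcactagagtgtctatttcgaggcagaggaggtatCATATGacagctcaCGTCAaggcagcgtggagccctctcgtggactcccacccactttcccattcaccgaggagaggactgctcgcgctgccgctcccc
Ntf3: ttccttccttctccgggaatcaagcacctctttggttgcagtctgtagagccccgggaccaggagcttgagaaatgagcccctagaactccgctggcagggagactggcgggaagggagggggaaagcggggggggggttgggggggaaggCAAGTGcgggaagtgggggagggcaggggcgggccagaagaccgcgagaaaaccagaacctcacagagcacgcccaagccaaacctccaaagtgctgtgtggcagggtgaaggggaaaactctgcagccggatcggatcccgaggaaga

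Total estimated counts were between 7553804 and 10121571 in ibudilast libraries and between 6960066 and 8204390 in untreated libraries. Levels are given as CPM, counts scaled by the TMM-adjusted library size. A gene is called where edgeR's quasi-likelihood test gives a p under 0.05 after Benjamini-Hochberg adjustment over 11682 tested genes. By that rule 38.5% of the tested genes were called, 20% as higher and 18.5% as lower in ibudilast libraries. At 24.2% of genes every library of one group lay above every library of the other, with ibudilast higher at 12.3% and lower at 11.8%. Some single libraries had high levels of markers of neighbouring tissue. Summed cerebellar markers reached 3519 CPM in ibudilast 3 and at most 86.7 CPM elsewhere, and summed meningeal fibroblast markers 989 and 1151 CPM in ibudilast 3 and ibudilast 5. Summed choroid plexus markers reached 2562 CPM in untreated 1.

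Of the 6 genes, Bdnf and Ntf3 fell, Ntrk3 rose, and Ntrk2, Ngfr and Sort1 did not pass the test. Their median log2 fold change was 0.14, against 0.01 over all tested genes. With 3 of 6 called, beside 38.5% of all genes, the number of calls alone does not set the group apart. The level of all 6 in each library is plotted next.

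**Figure D1:**
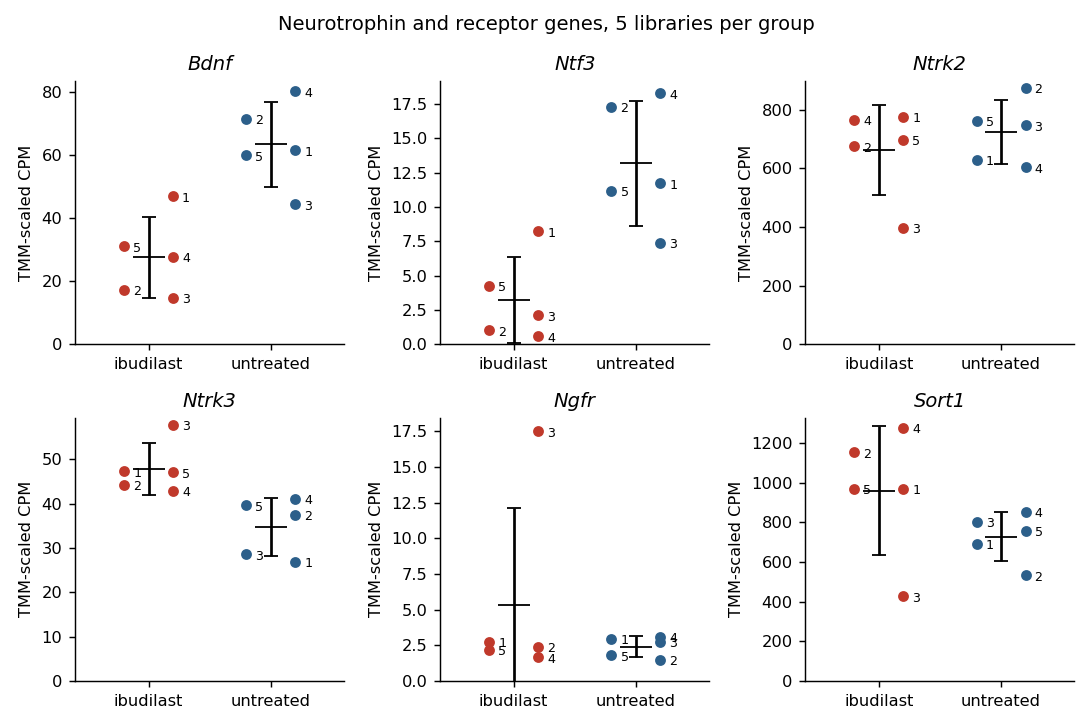
Level of each gene in TMM-scaled CPM (vertical axes, each from 0) in ibudilast and untreated libraries. Points are libraries, numbered by replicate, with the mean and SD of 5 libraries as bars; for Ngfr in the ibudilast group the SD is larger than the mean and the bar is cut at 0. Ibudilast 3 holds the highest Ngfr and Ntrk3 values and the lowest Bdnf, Ntrk2 and Sort1 values.

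Bdnf, the main neurotrophin of the adult hippocampus, fell 2.31-fold. It stood at 47.0, 17.3, 14.7, 27.7 and 31.1 CPM in ibudilast libraries 1 to 5, against 61.6, 71.5, 44.3, 80.2 and 60.0 CPM in untreated libraries 1 to 5. Of the ibudilast libraries, 4 lay below every untreated one, and ibudilast 1 lay above untreated 3, so the groups overlapped by that pair. The means were 27.6 ± 12.8 CPM with ibudilast and 63.5 ± 13.5 CPM untreated (SD, n = 5 each). The log2 fold change was -1.21 ± 0.29 (SE; 95% interval -1.83 to -0.58; edgeR adjusted p = 0.00781). Among the 11682 genes, 1.52% had a lower log2 fold change. The call held without any 1 library, with log2 fold changes from -1.48 (without ibudilast 1) to -1.04 (without ibudilast 3), and also without ibudilast 3, ibudilast 5 and untreated 1 together (-1.07). It was lost with a score of hippocampal neuron markers as a covariate, where the log2 fold change was -0.59 (adjusted p = 0.146, the highest over 15 other settings, whose lowest was 0.00032). Because whole tissue was sequenced, fewer cells of a type and less RNA per cell cannot be told apart, here and for every gene below.

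Ntf3, the ligand of TrkC, showed the largest fold change of the 6. Its counts were 63, 8, 19, 5 and 45 in ibudilast libraries 1 to 5, against 80, 142, 54, 136 and 81 in untreated libraries 1 to 5. As levels these were 8.22, 1.01, 2.12, 0.587 and 4.26 CPM with ibudilast and 11.7, 17.3, 7.39, 18.3 and 11.2 CPM untreated. Again ibudilast 1 was the highest treated library and untreated 3 the lowest untreated one, and they overlapped. The means were 3.24 ± 3.13 CPM with ibudilast and 13.2 ± 4.55 CPM untreated (SD, n = 5 each), and the log2 fold change was -2.03 ± 0.56 (SE; 95% interval -3.25 to -0.81; edgeR adjusted p = 0.0154). Only 0.282% of tested genes had a lower log2 fold change. The call held without any 1 library (-2.68 to -1.76), but not without ibudilast 3, ibudilast 5 and untreated 1 together (-2.07, adjusted p = 0.0615, in a range of 0.00159 to 0.231 over 15 other settings), nor with the hippocampal neuron score (-1.09, adjusted p = 0.183) or a neocortical score (-1.46, adjusted p = 0.231) as a covariate.

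Both ligands varied together among libraries. In the untreated group the libraries fell in the same order for Bdnf and Ntf3, with untreated 4 highest, then 2, 1, 5 and 3. In the ibudilast group ibudilast 1 was highest and ibudilast 5 next for both genes, while ibudilast 3 was lowest for Bdnf and ibudilast 4 for Ntf3. With each group mean subtracted, Pearson's r between them on the log2 scale was 0.67 over 10 libraries, which share depth and scaling. Within the ibudilast group the coefficient of variation was 46.6% for Bdnf and 96.6% for Ntf3, against 21.2% and 34.5% in the untreated group.

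Ntf4, which encodes another ligand of TrkB, was too low to test, with no more than 3 counts in any library.

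Among the receptors, Ntrk2, the gene for the BDNF receptor TrkB, did not pass. It stood at 775, 676, 397, 767 and 697 CPM in ibudilast libraries 1 to 5, against 629, 874, 747, 604 and 761 CPM in untreated libraries 1 to 5. The ibudilast libraries other than ibudilast 3 lay inside the untreated range. The means were 662 ± 155 CPM with ibudilast and 723 ± 110 CPM untreated (SD, n = 5 each). The log2 fold change was -0.13 with a 95% interval of -0.52 to 0.26 (edgeR adjusted p = 0.595), so a change of a size inside that interval was not resolved. Without ibudilast 3 it was 0.018. Ntrk2 counts were fractional in all 10 libraries, as RSEM gives where reads are shared between features.

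Ntrk3, the gene for TrkC, rose by a smaller amount, and its groups did not overlap. It stood at 47.3, 44.2, 57.8, 42.8 and 47.1 CPM in ibudilast libraries 1 to 5, against 26.8, 37.4, 28.6, 41.1 and 39.7 CPM in untreated libraries 1 to 5. The lowest ibudilast value, in ibudilast 4, lay just above the highest untreated one, in untreated 4, and groups separated in this direction at 12.3% of all genes. The means were 47.8 ± 5.89 CPM with ibudilast and 34.7 ± 6.56 CPM untreated (SD, n = 5 each), and the log2 fold change was 0.46 ± 0.14 (SE; 95% interval 0.16 to 0.77; edgeR adjusted p = 0.0234). The call was lost without untreated 1 (log2 fold change 0.38, adjusted p = 0.0531) and without untreated 3 (0.40, adjusted p = 0.0587), in a range of 0.0192 to 0.0587 over the 10 single omissions. Ntrk3 spans 387 kb (GRCr8) and belongs to the decile of genes with the longest span, whose median log2 fold change was 0.38. With the trend of fold change on span removed, its log2 fold change was -0.018. Ntrk2 lies in the same decile, with a span of 315 kb, and with the trend removed it passed the test as lower (log2 fold change -0.58, adjusted p = 0.0281, in a range of 0.0281 to 0.993 over 15 other settings).

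Ngfr, the gene for the p75 receptor, was low in all libraries but ibudilast 3, with 12 to 23 counts, against 157 in ibudilast 3. Like those of Ntrk2, its counts were fractional in all 10 libraries. It stood at 2.74, 2.39, 17.5, 1.64 and 2.18 CPM in ibudilast libraries 1 to 5, against 2.93, 1.46, 2.74, 3.09 and 1.80 CPM in untreated libraries 1 to 5. The ibudilast libraries other than ibudilast 3 lay inside the untreated range. The log2 fold change was 1.15 ± 0.66 (SE; edgeR adjusted p = 0.184) with all libraries and -0.093 without ibudilast 3 (adjusted p = 0.811; range over the 10 single omissions 0.122 to 0.811). Summed cerebellar markers were at 3519 CPM in that library and at 86.7 CPM or less in the rest. Summed meningeal fibroblast markers were high in ibudilast 3 and also in ibudilast 5, where Ngfr stood at 2.18 CPM. Their part in the Ngfr value was not tested.

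Sort1, the gene for sortilin, had its 4 highest values in ibudilast libraries and its lowest in ibudilast 3. It stood at 970, 1153, 426, 1277 and 968 CPM in ibudilast libraries 1 to 5, against 692, 532, 801, 852 and 756 CPM in untreated libraries 1 to 5. Each ibudilast library other than ibudilast 3 lay above every untreated one. With all libraries the log2 fold change was 0.40 ± 0.25 (SE; 95% interval -0.14 to 0.94; edgeR adjusted p = 0.217) and did not pass. Without ibudilast 3 it was 0.59 and passed (adjusted p = 0.00729), and so it did without ibudilast 3, ibudilast 5 and untreated 1 together (0.62, adjusted p = 0.0295). These adjusted p-values ranged from 0.00729 to 0.422 over the 10 single omissions and from 0.0143 to 0.71 over 15 other settings.

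Of 6 sortilin relatives and p75NTR partners, 2 rose and 4 did not pass, beside 20% of all tested genes that rose and 18.5% that fell. Sorcs1, a sortilin relative that sorts membrane proteins, was at 36.0 ± 16.2 CPM with ibudilast and 17.4 ± 1.78 CPM untreated (SD, n = 5 each), with no overlap, and its log2 fold change was 1.05 ± 0.27 (SE; edgeR adjusted p = 0.0111). Lingo1, a co-receptor of p75NTR and the Nogo receptor, rose by 0.88 ± 0.25 on the log2 scale (SE; edgeR adjusted p = 0.0185). Sorl1, a sorting receptor of amyloid precursor protein, had a log2 fold change of 0.48 and did not pass (edgeR adjusted p = 0.129). The values for Sorcs2, Sorcs3 and Rtn4r, the Nogo receptor gene, were -0.07, -0.19 and 0.12. Sorcs1 and Lingo1, like Sorl1, Sorcs2 and Sorcs3, lie in the decile of genes with the longest span, whose median log2 fold change was 0.38. The part of span in these values was not tested.

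**Figure D2:**
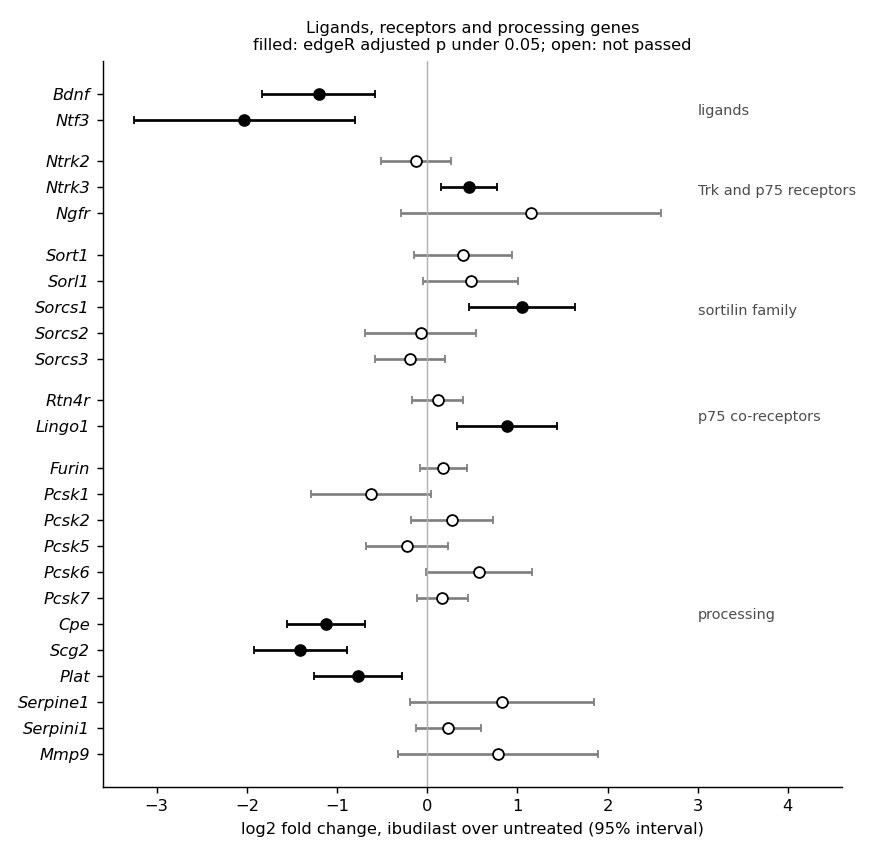
Log2 fold change, ibudilast over untreated (horizontal axis), with 95% intervals for ligand, receptor and processing genes, grouped by role. Filled points passed the edgeR test and open points did not: Bdnf, Ntf3, Cpe, Scg2 and Plat lie below 0, and Ntrk3, Sorcs1 and Lingo1 above it.

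Set against its receptor gene in the same library, Bdnf was lower with ibudilast on a measure that no scaling factor touches. There were 6.06, 2.57, 3.71, 3.61 and 4.46 Bdnf counts per 100 Ntrk2 counts in ibudilast libraries 1 to 5, against 9.80, 8.18, 5.94, 13.3 and 7.88 in untreated libraries 1 to 5. The groups overlapped only where ibudilast 1 exceeded untreated 3. The log2 ratio differed by -1.15 between the group means, ibudilast minus untreated, and by -1.31 to -0.996 with 1 library left out. For Ntf3 per 100 Ntrk3 counts the values were 17.4, 2.27, 3.66, 1.37 and 9.05 with ibudilast, against 43.7, 46.3, 25.8, 44.4 and 28.2 untreated. Here every ibudilast library lay below every untreated one, while the levels of Ntf3 alone overlapped. Ntrk3, by which Ntf3 is divided, was higher in every ibudilast library than in any untreated one. The genes differ in transcript length, so these ratios can be read between libraries and not as relative amounts of ligand and receptor transcript.

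Some markers of hippocampal neurons were lower with ibudilast, like both ligands. Of 8 tested CA pyramidal markers 5 (Fibcd1, Bok, Cpne4, Cpne7 and Grik4) fell and none rose, and of 4 tested dentate granule markers 1 (C1ql2) fell, beside 18.5% of all tested genes. Among those that did not pass, the CA markers Wfs1 and Dkk3 had log2 fold changes of 0.66 and 0.0072 and the dentate marker Trpc6 of 0.016, and these 3 were named after their values were seen. The summed level of the 9 CA markers was 599 to 1461 CPM with ibudilast and 953 to 2087 CPM untreated, and that of the 6 dentate markers was 56.0 to 161 CPM with ibudilast and 88.0 to 274 CPM untreated. No marker of either list was at 0 in every library. C1ql2, made by granule cells, stood at 72.8, 13.1, 5.57, 6.57 and 25.3 CPM in ibudilast libraries 1 to 5, against 41.9, 149, 49.8, 122 and 86.4 CPM in untreated libraries 1 to 5. Ibudilast 1, the treated library with the most Bdnf and Ntf3, had the highest C1ql2 of its group and the highest mean marker score (0.42, mean z-score of 12 markers), while ibudilast 3 had the lowest score (-0.95).

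Some markers of the neighbouring neocortex moved the other way. Of 8 tested neocortical markers 5 rose, among them Tbr1, Cux2, Rorb and Lamp5, and none fell, beside 20% and 18.5% of all tested genes. Fezf2, Tle4 and Rspo1 did not pass, with log2 fold changes of 0.35, 0.24 and -0.59, and were named after their values were seen. The summed level over 9 neocortical markers was 327 to 803 CPM with ibudilast and 226 to 276 CPM untreated. The mean z-score of the 8 tested markers was nevertheless lowest of all libraries in ibudilast 3 (-0.76). With the neocortical score as a covariate Bdnf still passed (log2 fold change -1.40, adjusted p = 0.0466) and Ntf3 did not, and with the hippocampal neuron score neither passed. Both scores differ between the groups, so the part of tissue composition in the values of the ligands and that of the treatment cannot be told apart here.

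**Figure D3:**
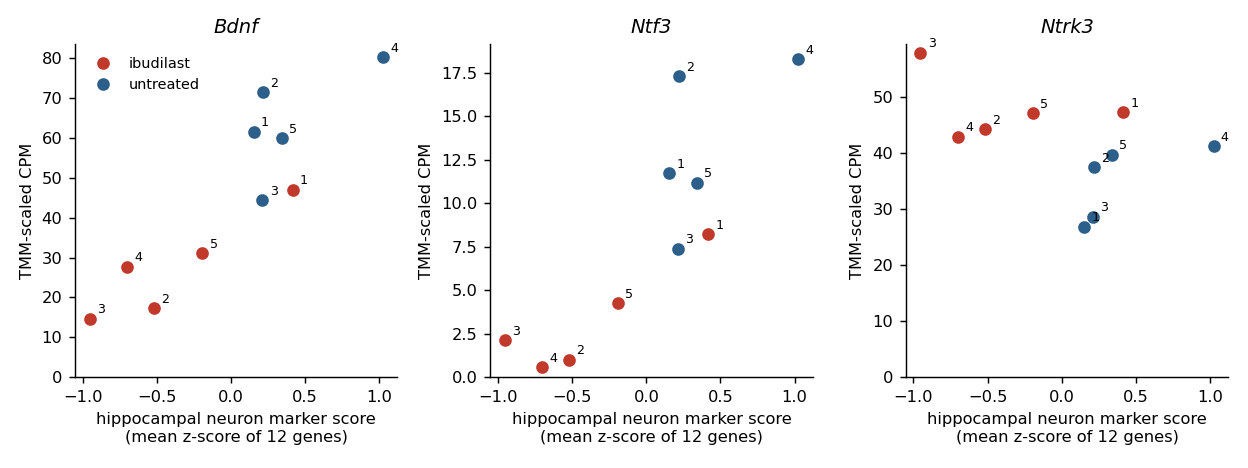
Level of Bdnf, Ntf3 and Ntrk3 in TMM-scaled CPM (vertical axes, from 0) against the mean z-score of 12 hippocampal neuron markers (horizontal axes) in the 10 libraries, numbered by replicate. The 4 ibudilast libraries with a score below 0 hold the 4 lowest Bdnf and Ntf3 values. Ibudilast 1, at 0.42, lies among the untreated libraries for Bdnf and Ntf3 and above all of them for Ntrk3.

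Genes that process the precursors fell in 3 of 12 tested cases, beside 18.5% of all tested genes, and rose in 0, so the count does not set the list apart, and the median over the 12 was 0.17 on the log2 scale. Cpe, which encodes carboxypeptidase E, a sorting receptor for proBDNF, was at 1475 ± 402 CPM with ibudilast and 3214 ± 537 CPM untreated (SD, n = 5 each). Scg2, a granin of secretory granules, was at 220 ± 78.8 CPM with ibudilast and 584 ± 88.9 CPM untreated, and its fold change was -1.41 ± 0.24 on the log2 scale (SE; edgeR adjusted p = 0.00167). Neither gene's groups overlapped. Plat, which encodes the tissue plasminogen activator that starts the cleavage of proBDNF outside cells, was lower, at -0.76 ± 0.22 on the log2 scale (SE; edgeR adjusted p = 0.0202). Of the convertase genes, Furin had a log2 fold change of 0.18, Pcsk7 of 0.17 and Pcsk1 of -0.63, and none passed. Serpini1, the gene for the neuronal inhibitor of Plat's product, was at 331 ± 68.6 CPM with ibudilast and 282 ± 48.8 CPM untreated and did not pass.

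Over all pathway lists together, 31 of 112 tested genes rose (20% of all tested genes did) and 13 fell (18.5% of all). Their median log2 fold change was 0.25, against 0.01 over all tested genes. Without ibudilast 3 the counts were 47 higher and 14 lower, beside 2573 and 2178 of all 11705 genes tested in that fit. The hippocampal neuron score as a covariate gave 7 higher and 4 lower, beside 712 and 533 of all 11682 genes. With the trend of fold change on span removed they were 20 higher and 14 lower (median 0.12), beside 1639 and 2254 of all. With the neocortical score as a covariate they were 18 higher and 17 lower (median 0.063), beside 1800 and 1383 of all. Among 43 adaptor and signalling genes downstream of the Trk receptors 13 rose and 4 fell (median 0.25). Irs1, an insulin receptor substrate that also docks to activated receptors, was at 16.8 ± 3.38 CPM with ibudilast and 5.59 ± 1.03 CPM untreated (SD, n = 5 each), the smallest p of the list. Pdpk1, which activates AKT, had a log2 fold change of 1.56, Crkl, an adaptor of Ras-family signalling, of 0.94, Pik3r1, a regulatory subunit of PI3 kinase, of 0.88 and Mtor, the kinase that controls translation, of 0.66. The 4 genes that fell, Hras, Map2k1, Map2k2 and Mapk3, all encode parts of the Ras-MAP kinase cascade, with log2 fold changes of -0.61, -0.58, -0.38 and -0.52. Eef2, a translation elongation factor, was the most abundant gene that did not pass (-0.07).

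On the p75 side, 4 of 13 tested genes rose and 3 fell, beside 20% and 18.5% of all tested genes. These counts do not set the list apart, and the median over the 13 was -0.12 on the log2 scale. The c-Jun N-terminal kinase genes Mapk8, Mapk9 and Mapk10 rose by 0.53, 0.73 and 0.58 on the log2 scale, and Traf6, an adaptor that binds p75NTR, by 1.04. Ngfrap1, which encodes a p75-associated protein and is now named Bex3, was at 94.8 ± 12.6 CPM with ibudilast and 169 ± 15.6 CPM untreated (SD, n = 5 each), and its fold change was -0.83 ± 0.11 on the log2 scale (SE; edgeR adjusted p = 0.000836). Its relative Bex1 and the small GTPase gene Rhoa fell by 0.44 and 0.31. Maged1, which encodes a p75-binding protein, had a log2 fold change of -0.21 and did not pass.

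Genes known to control Bdnf transcription were called higher more often than lower. Of 17 tested, 9 rose and 2 fell, beside 20% and 18.5% of all tested genes. The median over the 17 was 0.68 on the log2 scale. The part of gene span in these values was not tested for this list. Creb1 stood at 7.85 ± 1.30 CPM with ibudilast and 3.96 ± 1.55 CPM untreated (SD, n = 5 each), its coactivator gene Crtc1 at 129 ± 10.7 CPM with ibudilast and 73.0 ± 12.5 CPM untreated, and neither gene's groups overlapped. Camk4, a kinase of CREB, rose by 1.70 ± 0.31 on the log2 scale (SE; edgeR adjusted p = 0.0026). Mef2d, a factor of activity-dependent transcription, rose by 0.92. Npas4, an activity-induced factor that binds Bdnf promoters, was at 6.27, 36.1, 10.1, 43.2 and 23.1 CPM in ibudilast libraries 1 to 5, against 3.37, 10.9, 1.37, 3.09 and 2.90 CPM in untreated libraries 1 to 5 (log2 fold change 2.44 ± 0.61, SE; edgeR adjusted p = 0.0104). The ibudilast libraries with the most Npas4, ibudilast 2 and ibudilast 4, were not those with the most Bdnf. Hdac2, a histone deacetylase gene, and Usf1, an E-box factor gene, fell by 0.39 and 0.32, and Camk2a did not pass (0.19).

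Of 21 genes that BDNF or neuronal activity induces, 3 rose and none fell, beside 20% and 18.5% of all tested genes, so the count does not mark the list as raised. The median over the 21 was 0.56 on the log2 scale. The 3 were the early response genes Egr1 (1.59 ± 0.40, SE; edgeR adjusted p = 0.01), Egr2 (1.59) and Fos (1.95). The groups overlapped for each: ibudilast 1 was low for Egr1 (55.0 CPM) and Fos (3.26 CPM), and ibudilast 3 for Egr2 (3.34 CPM). Secreted products induced by BDNF in cultured neurons, Vgf, Npy and Nptx2, had log2 fold changes of 0.13, -0.12 and -0.30 and did not pass.

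**Figure D4:**
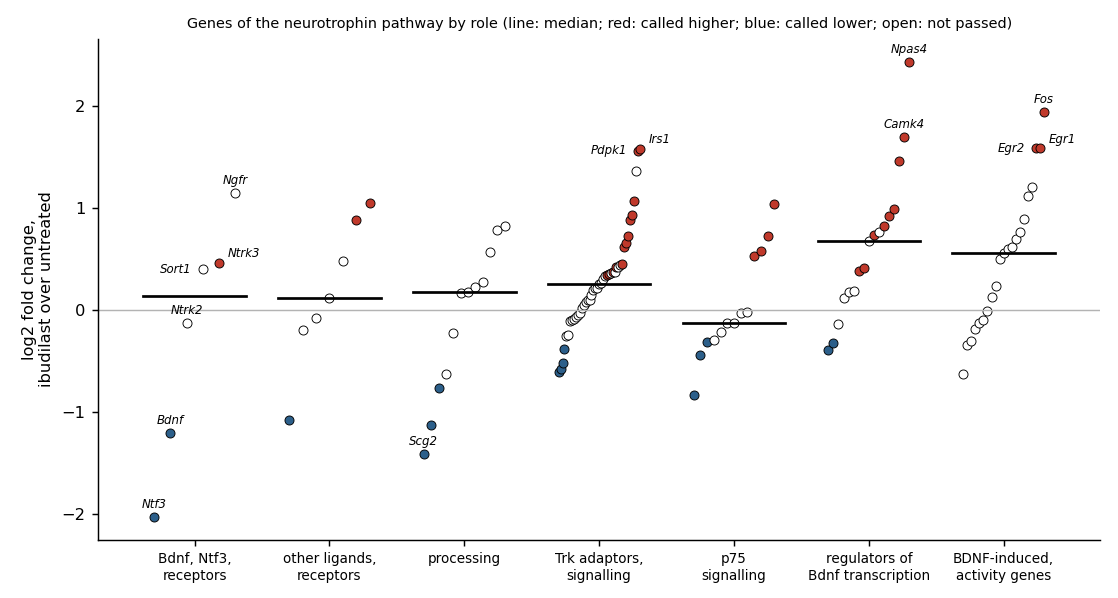
Log2 fold change, ibudilast over untreated (vertical axis), of each tested gene in 7 groups by role, with the median of each group as a line. Red points were called higher, blue points lower and open points did not pass; the regulators of Bdnf transcription have the highest median, 0.68.

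Genes with the library pattern most like that of Bdnf were sought over all 11681 other tested genes, by Pearson's r of log2 CPM over the 10 libraries. B3gat2, a glucuronyltransferase gene, came first (r = 0.98), followed by Abhd17c, Cldn9, Dcakd and Kctd4 (r = 0.97 each), with log2 fold changes from -1.67 to -0.84. With group means subtracted Prss12 (0.94), B3gat2 (0.94), Cldn9 (0.93), Abhd17c (0.93) and Spef2 (0.92) came first. B3gat2, Cldn9 and Abhd17c thus stood in both lists. For Ntrk2 the nearest were Cx3cr1 (0.97), Palm (0.96), Cspg5 (0.95), Marcks (0.94) and Cyp46a1 (0.94), none of which passed the test. All these values share library depth and scaling and are given as a description.

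The fold change of each of the 6 genes under every alternative fit is plotted last. Bdnf and Ntf3 lie below 0 in all of these fits, and the other 4 genes change sign in at least 1 of them.

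**Figure D5:**
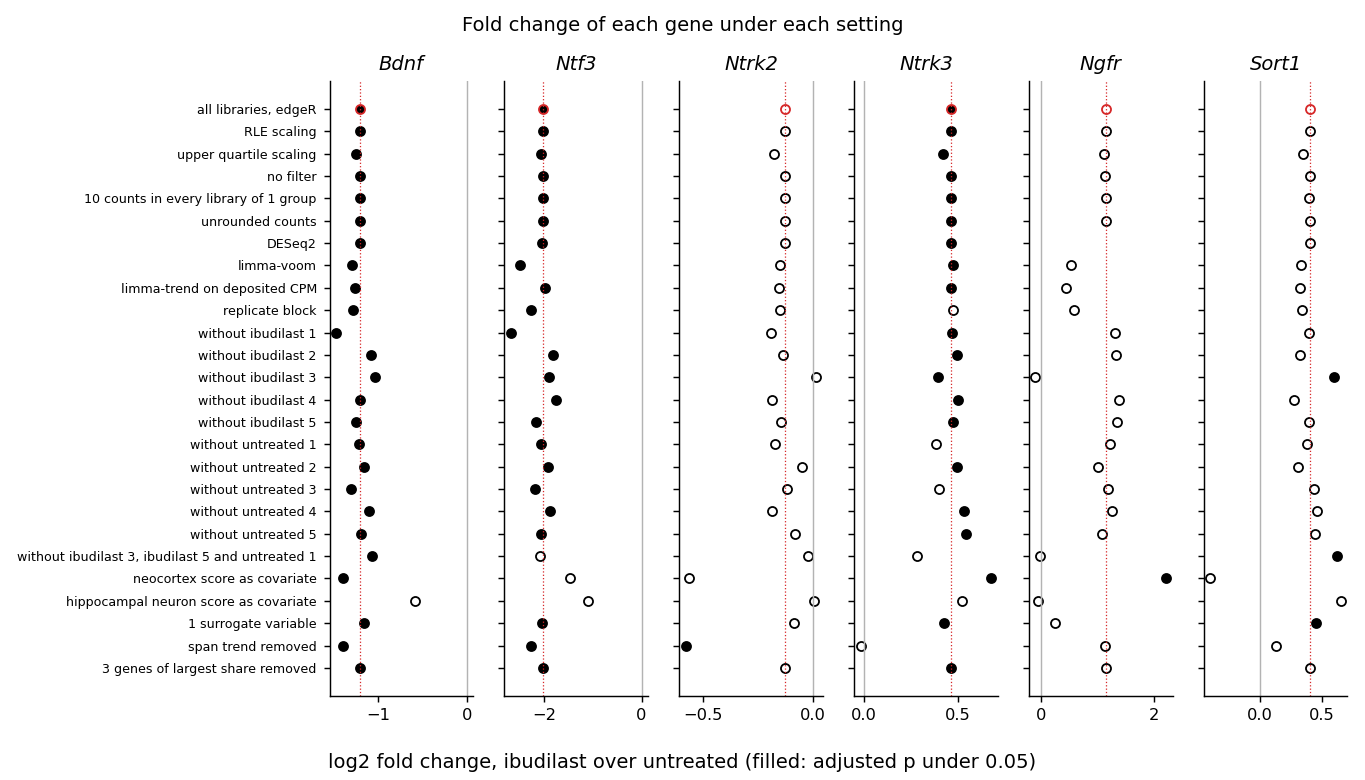
Log2 fold change, ibudilast over untreated (horizontal axes, own scale per gene), of the 6 genes in the fit with all libraries (red outline, dotted line) and in each alternative fit (rows). Filled points had an adjusted p under 0.05; Bdnf passed in every fit but that with the hippocampal neuron score as a covariate, and DESeq2 gave no p for Ngfr.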

How the data were processed

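Per the labels' protocols, hippocampal RNA was purified on RNeasy columns and sequenced as stranded mRNA libraries. The authors deposited expected counts per gene. The submitters' processing notes list RSEM 1.2.15, Bowtie2 2.1.0, bcl2fastq 2.17, edgeR and the build rn6, and no source used here names the annotation or says whether counting used strand. A second deposited table has the authors' signal values, CPM on a TMM scale, and 99.9% of its values lie within 0.1% of those recomputed from the rounded counts. Fractional counts made up 10.6% to 11.3% of each library's values and were rounded. The group difference was fitted in R 4.3.3 with edgeR 4.0.16 (quasi-likelihood, TMM, filterByExpr) over 11682 genes with Benjamini-Hochberg adjustment, in a script tested on simulated data. No source used here describes how rats were housed or batched, so p-values measure the spread between these libraries. Alternatives used limma 3.58.1, DESeq2 1.42.0 and sva 3.50.0, other scalings and filters, marker scores, gene span (GRCr8, found for 98.2% of tested genes) and libraries left out. All 6 genes are named, and of each pathway list up to 5 called genes of smallest p per direction and the most abundant gene not called; Creb1, Furin, Pcsk1, Pcsk7, Rtn4r, Sorcs2, Sorcs3, Npy, Nptx2 and the low gene Ntf4 were named after their values were seen. Some genes of the lists enter the counts, sums and scores but are not reported here by name. The members and lists were chosen with earlier results of these data known. Ngfrap1 was listed under both of its names.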

Additional observations from a re-analysis of the deposited data

Results flagged for a closer look

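Of 92 groups of 5 libraries checked, 7 had 1 library far from the other 4, where chance gives about 1 in 20. In ibudilast 3, Ntrk2 was at 397 CPM, while the remaining treated libraries held 676 to 775 CPM. Ngfr was at 17.5 CPM in the same library and at 1.64 to 2.74 CPM in the others. Lingo1 was at 185 CPM in ibudilast 3 and at 453 to 558 CPM in the others. In ibudilast 1, Mapk3 was at 290 CPM, against 159 to 194 CPM in the others of its group, and Traf6 at 5.09 CPM, against 10.4 to 11.5 CPM. In the untreated group, Mtor was at 139 CPM in untreated 5, against 103 to 112 CPM in the others. Npas4 was at 10.9 CPM in untreated 2, against 1.37 to 3.37 CPM.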

How the results depend on the processing

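Bdnf kept its direction and its call in 14 of 15 other settings and in all 10 single omissions, and Ntf3 its call in 12 of 15 and in all 10. With the hippocampal neuron score as a covariate, 1245 genes were called, of them 11 pathway genes and 0 of the 6 genes (2 had an unadjusted p under 0.05). The log2 fold change under it was -0.59 for Bdnf, -1.09 for Ntf3, 0.0046 for Ntrk2, 0.52 for Ntrk3 and -0.050 for Ngfr. With the neocortical score Ntf3 had -1.46 and did not pass, Ngfr passed with 2.22 and Sort1 turned to -0.39. Without ibudilast 3, ibudilast 5 and untreated 1 the values were -2.07 for Ntf3 and 0.28 for Ntrk3, which did not pass, -0.012 for Ngfr, and 0.62 for Sort1, which passed. With the span trend removed, Ntrk2 passed at -0.58 and Ntrk3 turned to -0.018. With 1 surrogate variable Sort1 passed at 0.45. Leaving out 1 library gave ranges of -0.19 to 0.018 for Ntrk2, 0.38 to 0.54 for Ntrk3, -0.093 to 1.38 for Ngfr and 0.28 to 0.59 for Sort1. The causes of these differences were not tested. DESeq2 gave no p for Ngfr. With the replicate number as a block Ntrk3 had 0.47 and did not pass (adjusted p = 0.0627), the only call among the 6 that the block changed, and 3535 genes were called. Libraries with the same number did not deviate together (correlations from -0.13 to 0.022), so the numbers do not pair the rats. Low counts limit Ntf3, with 5 to 142 per library, and Ngfr, with 12 to 157. The omissions for the ratio of Bdnf to Ntrk2 were chosen after seeing the data.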

Other observations

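The marker counts in this section stand beside 20% of all tested genes that rose and 18.5% that fell. Basal forebrain cholinergic markers were low in both groups. Of 2 tested markers Chat rose (1.16 on the log2 scale). Lhx8 had 1 count in 1 library and Isl1 had 2 counts in 1 library, and both were at 0 in the rest. Of 7 astrocyte markers, cells that make truncated TrkB, 4 (Aqp4, Gja1, Gfap and Slc7a10) fell, and their summed level was 1982 to 3184 CPM with ibudilast and 3381 to 5160 CPM untreated, while Ntrk2 did not pass. Of 6 microglia markers 5 (P2ry12, Tmem119, Aif1, Csf1r and C1qa) fell, and Cx3cr1, the gene with the pattern most like Ntrk2, did not pass (-0.14). Of 8 mural cell markers Rgs5 fell, and the summed level was 109 to 406 CPM with ibudilast and 159 to 212 CPM untreated. The other 7 mural markers did not pass, with log2 fold changes from -0.28 to 1.49, and the median of the list was 0.081. Of 6 interneuron markers Gad2 and Slc32a1 rose, of 6 striatal markers 3, among them Drd1 and Drd2, and of 5 tested thalamic markers Prkcd, while Tnnt1 fell. Of 6 endothelial markers Cldn5, Pecam1 and Slco1c1 fell, of 6 oligodendrocyte precursor markers Neu4, Olig1 and C1ql1, and of 6 oligodendrocyte markers none passed. Some markers that did not pass went against the calls of their list. The astrocyte marker Slc1a2 had a log2 fold change of 0.41, the precursor marker Gpr17 of 0.84 and the striatal marker Adora2a of -0.36. Slc1a2, Gpr17 and Adora2a were named after their values were seen. Of 4 tested cerebellar markers Fat2, Cbln1 and Car8 rose, and of 8 meningeal markers Col1a1, Col1a2, Aldh1a2 and Ogn. The other 4 meningeal markers did not pass, with log2 fold changes from -0.77 to 2.21. The sums were far above the other libraries in ibudilast 3 for the cerebellar set and in ibudilast 3 and ibudilast 5 for the meningeal set.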
